A study of Mus musculus with 10 samples.

Results

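The genes described here are matrix metalloproteinases, enzymes that cut the proteins around and on the surface of cells, and the tissue inhibitors that block them. They were chosen by name from the hemibrain arrays and are the secreted gelatinases Mmp2 and Mmp9, the membrane-type enzymes Mmp14, Mmp16, Mmp17 and Mmp24, and the inhibitors Timp1, Timp2, Timp3 and Timp4. All 10 were found, with 15 probes on 24 spots of each array, among 18535 named genes and 41174 probes.

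The series holds 10 arrays, each from the left hemibrain of another mouse, all of them males of C57BL/6J, a common inbred strain that carries no transgene here. The mice arrived at 3 weeks of age, were housed singly and stayed on a standard lab diet (SD) or a diet enriched in n-3 PUFA (FD) for 20 weeks, to an age of 5 months. The dye Cy-5 marked the hemibrain RNA and Cy-3 a second RNA on the same spots, so that each spot gives a Cy-5/Cy-3 ratio. The diet entries put all 10 hemibrains on FD and describe the Cy-3 RNA as pooled SD hemibrain, whereas the description field calls the same arrays controls, and the study's methods name 4 FD and 3 SD arrays with a commercial reference RNA. The diets were therefore treated as unknown, no comparison between diets was made, and values are given per array, by animal number, or as the lowest, median and highest array.

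Matrix metalloproteinases are made as inactive proenzymes and are switched on when an inhibitory propeptide is removed, in part by the plasminogen system and by furin-like enzymes. Each active enzyme can be held by a Timp bound in its catalytic cleft. In brain, these enzymes are known for remodeling of perineuronal and vascular matrix, opening of the blood-brain barrier after injury, and cutting of synaptic proteins, and pro-BDNF is among the proposed substrates of Mmp9.

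A brain hemisphere mixes neurons, glia, vessels and meninges, and in such bulk RNA fewer cells of a type and less RNA per cell cannot be told apart. A probe is called detected in a dye where the deposited flags put it well above that dye's background. In Cy-5, all 10 neuronal, all 8 astrocyte and all 8 oligodendrocyte markers were detected on every array. These genes were also more than 2-fold higher in Cy-5 than in Cy-3 on every array, with a median log2 ratio of 5.75 for the neuronal list, and 7 of 8 proliferation genes were more than 2-fold lower. These ratios go against the label of the Cy-3 RNA as hemibrain. No spot was saturated. Detected probes made up 68.2% to 76.9% in Cy-5 on 9 arrays but 49.8% on the array of animal C10-434, which was the dimmest.

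A gene was called higher in the hemibrain RNA when the log2 Cy-5/Cy-3 of its brightest probe exceeded 1, a 2-fold ratio, on every array and the probe was detected in Cy-5 on all of them. It was called lower when the ratio was under -1 on every array and the probe was detected in Cy-3. By this rule Mmp16, Mmp17, Mmp24 and Timp4 were higher, which is 4 of the 10 members beside 16.5% of all genes. Mmp2, Mmp9, Mmp14 and Timp1 were lower, again 4 of 10, beside 13.3% of all genes. Timp2 and Timp3 were neither. The median of the members' ratios was -0.66, between Timp2 and Timp3, and that of all genes was 0.12. Both gelatinases lay on the Cy-3 side together with Mmp14 and Timp1. The other membrane-type enzymes lay on the hemibrain side together with Timp4. Under the normexp background correction the calls dropped to 1 higher (Mmp17) and 2 lower (Mmp14 and Timp1), and without C10-413 Timp4 and Mmp2 were called again. The medians of the genes that lost the call under normexp kept their direction, at 3.17 for Timp4, 1.77 for Mmp24, 1.504 for Mmp16, -2.63 for Mmp2 and -2.34 for Mmp9. A background subtraction with a floor, after which 50 was added to each signal as in normexp, kept the same 4 and 4 genes.

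**Figure D1:**
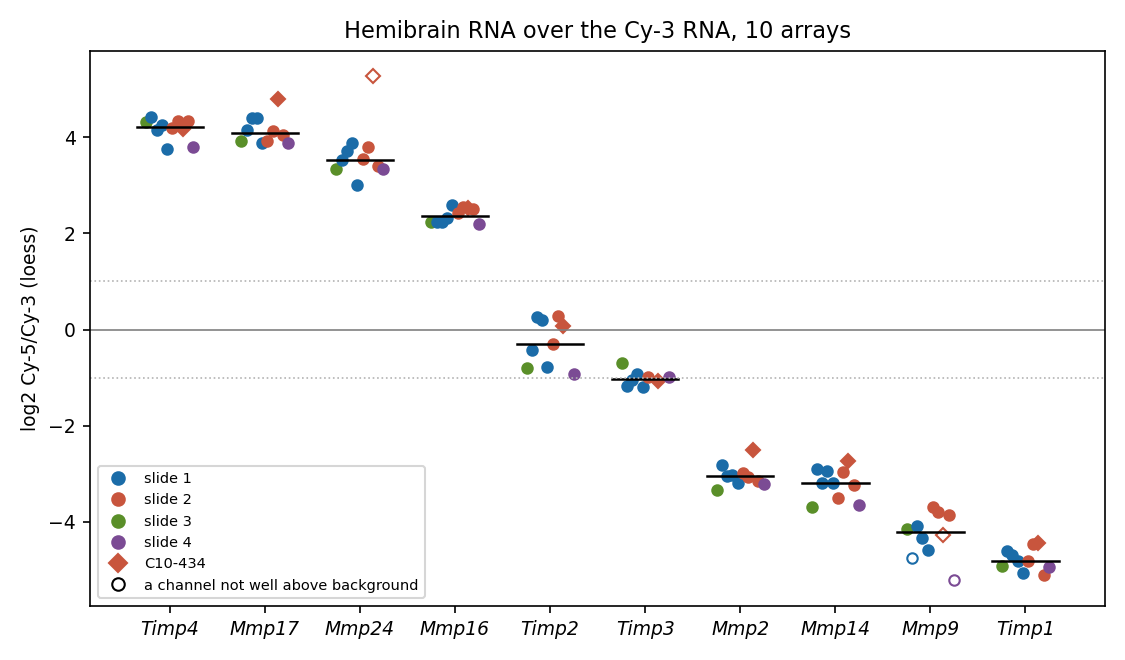
Log2 ratio of Cy-5 (hemibrain) to Cy-3 for the brightest probe of each member, with 1 point per array colored by slide, the array of C10-434 as a diamond, a bar at the median over arrays, and dotted lines at 1 and -1. Timp4, Mmp17, Mmp24 and Mmp16 lie above 2 on every array, Timp2 lies on both sides of 0, and Mmp2, Mmp14, Mmp9 and Timp1 lie at -2.50 or lower. Open symbols mark arrays where the probe was not detected in a dye.

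The gelatinases, which digest denatured collagen and basement membrane, were both lower in hemibrain RNA. Mmp2, gelatinase A, is an enzyme of fibroblasts and vessel walls. Its log2 ratio (probe A_51_P341736) was -3.34 on C10-413, -2.81 on C10-415, -3.04 on C10-416, -3.03 on C10-417, -3.20 on C10-423, -2.99 on C10-424, -3.07 on C10-425, -2.50 on C10-434, -3.15 on C10-435 and -3.21 on C10-437. The arrays lay close together except C10-434, the dimmest array, which was highest. At the median the Cy-3 signal was 8.31-fold higher. The probe was still detected in hemibrain RNA on every array, with processed intensities of 491 to 767 in Cy-5.

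Mmp9, gelatinase B, is released by neutrophils and microglia and is made by neurons after activity, and it was among the genes the study followed up by qPCR. Its hemibrain signal was near the limit of detection. The brighter probe, A_51_P401797, gave -4.16 on C10-413, -4.76 on C10-415, -4.09 on C10-416, -4.33 on C10-417, -4.58 on C10-423, -3.70 on C10-424, -3.79 on C10-425, -4.28 on C10-434, -3.87 on C10-435 and -5.22 on C10-437. The probe was detected in Cy-5 on 7 arrays and not on C10-415, C10-434 and C10-437, where the ratio rests on a dim Cy-5 signal. Processed Cy-5 intensities ran from 53.2 to 165, against 1249.7 to 2970.3 in Cy-3, and the ranges of the dyes did not overlap. The Cy-3 signal was 18.7-fold higher at the median, but the size depends on the background correction and its offset. The median log2 ratio was -2.34 under normexp and -2.54 with the floor, which both add 50 to each signal.

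The second Mmp9 probe, A_52_P507214, is printed on 10 spots of each array and shows how precisely a dim gene was measured. It was detected in Cy-5 on all arrays but C10-434. After averaging of spots, its ratio lay between -3.66 (C10-423) and -3.01 (C10-424) with a median of -3.45, a 10.9-fold higher Cy-3 signal. Both probes therefore placed Mmp9 on the Cy-3 side on 10 of 10 arrays but differed in size. Before loess, the SD between repeated spots of 1 array was 0.118 at the lowest, 0.210 at the median and 0.573 at the highest, the last on C10-434. The SD of the array means was 0.198, beside a standard error of such a mean of 0.107 (root mean square over arrays). C10-424 stood clear of the other arrays on this probe. On the other probe, which has 1 spot, C10-424 was also highest, but C10-425 was close to it.

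**Figure D2:**
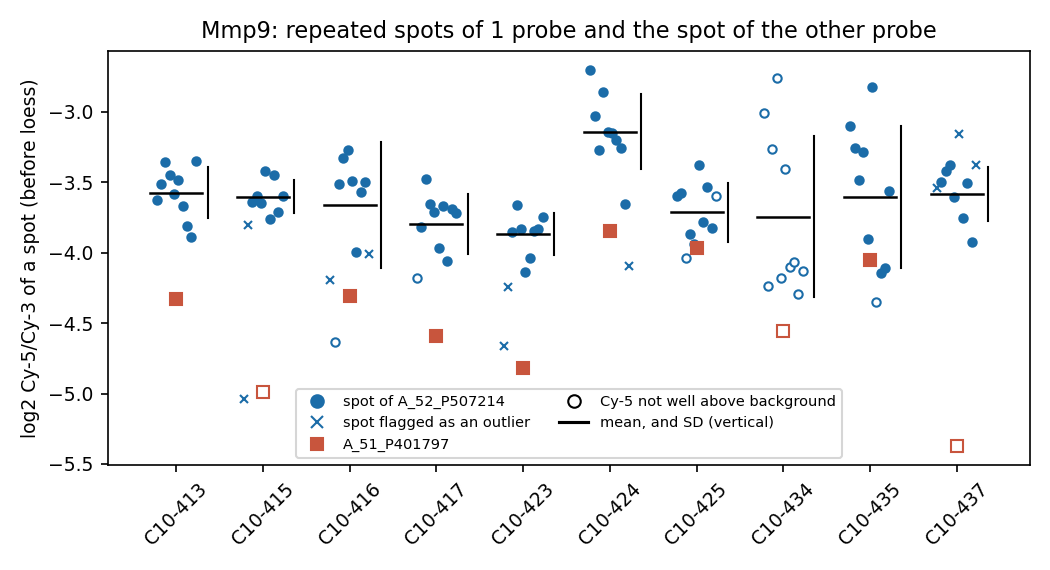
Log2 Cy-5/Cy-3 before loess for every spot of the repeated Mmp9 probe (blue) and the spot of the other probe (red squares) on each array. Horizontal and vertical lines give the mean and SD of the spots kept, crosses are spots flagged as outliers and left out, and open symbols are spots not detected in Cy-5. The spots of C10-424 center on -3.14 and those of the other 9 arrays between -3.87 and -3.57, with wide scatter on C10-434.

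Markers of the cells that can carry Mmp9 were read beside it. Over all genes, 16.5% were called higher and 13.3% lower. Of 7 neutrophil markers, 0 were detected in Cy-5 on every array and 2 on no array. S100a8 was called lower at -5.85, but was detected in Cy-5 on 1 array alone. The others were called neither. S100a9 stood at 2.66 and Mpo at -0.34, each detected in Cy-5 on 9 arrays, and Ltf at 1.05 on 8. Camp stood at 0.37, Elane at -0.22 and Ngp at -0.30. The median of the list lay between -0.64 (C10-437) and 0.72 (C10-413), and over genes it was -0.22. With Elane, detected in Cy-3 on 3 arrays and in Cy-5 on 0, set at its bound, the median was 0.37. That bound, Cy-3 at least 0.05-fold of Cy-5, is too loose to limit the ratio. Of 8 microglial markers, all were detected in Cy-5 on every array and 5 were called higher, with list medians from 2.24 to 2.72. Their part in the Mmp9 values was not tested.

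The membrane-type enzymes sit on the cell surface, held by a transmembrane stretch in Mmp14, Mmp16 and Mmp24 and by a lipid anchor in Mmp17. Mmp14, MT1-MMP, digests fibrillar collagen and activates pro-Mmp2 in a complex with Timp2. It was lower in hemibrain RNA, with the log2 ratio of its brightest probe at -3.70 (C10-413) at the lowest, -3.19 at the median and -2.75 (C10-434) at the highest, a 9.16-fold higher Cy-3 signal at the median. Its second probe ran from -3.64 (C10-423) to -1.92 (C10-413) with a median of -2.58. Both probes gave the same direction on 10 of 10 arrays, but C10-413 was lowest on 1 probe and highest on the other, so the order of the arrays is not fixed for this gene.

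Mmp16, MT3-MMP, which also activates pro-Mmp2, was higher in hemibrain RNA. Its log2 ratio was 2.20 at the lowest (C10-437), 2.37 at the median and 2.60 at the highest (C10-423), a 5.15-fold higher Cy-5 signal. The median was 1.504 under normexp, 1.65 with the floor and 1.39 as the mean of both probes. Its SD of 0.152 was the smallest among the members. Of the 10530 genes with a ratio and detected in both dyes on every array, 10.9% had a smaller SD. A second Mmp16 probe, A_51_P195775, was detected on 0 arrays in either dye and carries no usable ratio.

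Mmp17, MT4-MMP, is a lipid-anchored enzyme with little action on pro-Mmp2. Its brightest probe gave 3.87 at the lowest (C10-423), 4.09 at the median and 4.81 at the highest (C10-434), a 17.0-fold higher Cy-5 signal. The second probe gave 3.97, 4.39 and 5.67, the last again on C10-434. Both probes were detected in both dyes on every array. Mmp17 kept its higher call under normexp, with a median of 3.83.

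Mmp24, MT5-MMP, is known for its expression in neurons and for cutting N-cadherin at synapses. Its log2 ratio was 3.34 on C10-413, 3.53 on C10-415, 3.73 on C10-416, 3.89 on C10-417, 3.01 on C10-423, 3.54 on C10-424, 3.79 on C10-425, 5.28 on C10-434, 3.40 on C10-435 and 3.33 on C10-437. Apart from C10-434, the arrays spanned 0.88. On C10-434 the probe was not detected in Cy-3, at a processed intensity of 15.9 against 69.7 to 157 elsewhere, so that ratio is uncertain. The Cy-5 signal was 11.6-fold higher at the median. The median log2 ratio of 3.53 dropped to 1.77 under normexp and 2.09 with the floor.

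The promoter of Mmp24 is shown because it is the richest in CG dinucleotides of the members with a promoter sequence. Promoter sequences of assembly GRCm38.p6 were at hand for 6 of the 10 members (Mmp14, Mmp24, Timp1, Timp2, Timp3 and Timp4). Each window runs from 250 bases before to 50 bases after the annotated start. The Mmp24 window, chr2:155775092-155775391 on the plus strand, holds 44 CG dinucleotides at a GC content of 80%, more CG than 97.8% of all 32851 promoters, whose median was 7, and 3 GC box cores. Capitals mark the letters GGGCGG or their complement CCGCCC, the GC box core, searched on both strands and found in 35.7% of all promoters.
Mmp24: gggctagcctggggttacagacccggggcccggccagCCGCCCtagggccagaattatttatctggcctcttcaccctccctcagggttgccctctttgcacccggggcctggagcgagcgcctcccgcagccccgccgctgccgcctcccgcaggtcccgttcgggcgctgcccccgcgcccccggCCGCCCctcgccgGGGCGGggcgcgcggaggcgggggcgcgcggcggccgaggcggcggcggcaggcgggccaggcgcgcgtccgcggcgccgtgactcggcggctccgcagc

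Of the inhibitors, Timp1 was lower, Timp4 was higher, and Timp2 and Timp3 passed neither rule. Timp1 is an inducible inhibitor that binds pro-Mmp9 and inhibits most membrane-type enzymes weakly. Its brightest probe gave log2 ratios of -5.12 (C10-435) at the lowest, -4.82 at the median and -4.44 (C10-434) at the highest. This was the lowest median among the members' brightest probes, with a Cy-3 signal 28.2-fold higher. Its second probe gave -3.38, -2.92 and -2.31, or 7.55-fold. The direction was the same on 10 of 10 arrays for both probes, whereas the ranges of the probes did not overlap.

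Timp4 is the inhibitor most restricted in tissue, known from heart and brain. Its ratio ran from 3.75 (C10-423) over a median of 4.22 to 4.43 (C10-415), with a Cy-5 signal 18.7-fold higher. This was the highest median among the brightest probes after loess, whereas under normexp it was 3.17 against 3.83 for Mmp17, and with the floor 3.51 against 3.95. C10-434 did not stand apart for this gene, at 4.17. The promoters of Timp1 and Timp4, at the opposite ends of the members' order by brightest probe, are set side by side. The Timp1 window, chrX:20869916-20870215 on the plus strand, holds 8 CG dinucleotides and 1 GC box core, and the Timp4 window, chr6:115252156-115252455 on the minus strand, holds 2 CG dinucleotides, with 14.1% of promoters holding fewer, and 0 GC box cores. Capitals mark GGGCGG or CCGCCC as above.
Timp1: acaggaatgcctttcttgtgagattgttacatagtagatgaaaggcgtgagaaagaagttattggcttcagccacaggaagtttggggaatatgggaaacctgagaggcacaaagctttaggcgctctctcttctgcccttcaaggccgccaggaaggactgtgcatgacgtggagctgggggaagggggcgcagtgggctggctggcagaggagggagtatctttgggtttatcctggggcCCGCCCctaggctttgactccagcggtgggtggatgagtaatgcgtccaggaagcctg
Timp4: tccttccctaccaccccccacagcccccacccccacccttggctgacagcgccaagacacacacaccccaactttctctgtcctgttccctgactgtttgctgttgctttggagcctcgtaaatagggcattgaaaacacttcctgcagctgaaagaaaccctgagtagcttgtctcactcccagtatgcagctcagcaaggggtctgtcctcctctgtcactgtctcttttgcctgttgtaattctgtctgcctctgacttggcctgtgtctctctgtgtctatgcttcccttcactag
The AP-1 core letters TGANTCA, where N is any base, were found in 0 of the 6 windows and in 7.81% of all promoters. These matches are descriptions of letters and not of binding.

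Timp2, which inhibits many members of the family and also carries pro-Mmp2 to Mmp14, did not keep to a side of 0. Its log2 ratio was -0.80 on C10-413, -0.43 on C10-415, 0.25 on C10-416, 0.19 on C10-417, -0.78 on C10-423, -0.29 on C10-424, 0.29 on C10-425, 0.08 on C10-434 and -0.93 on C10-437, and the spot of C10-435 was flagged as an outlier and set aside. The ratio was above 0 on 4 arrays and below 0 on 5. Its signals were high in both dyes, with processed intensities from 65144 to 132926 in Cy-5 and from 63650 to 164928 in Cy-3.

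Timp3, which is bound to the matrix and inhibits Adam17 as well as metalloproteinases, lay just beside the lower limit. Its ratio was -1.19 (C10-423) at the lowest, -1.02 at the median and -0.69 (C10-413) at the highest of 8 arrays, with spots flagged as outliers on C10-425 and C10-435. It was below 0 on 8 of 8 arrays and a lower call at a ratio of 1.5-fold. The Cy-3 signal was 2.03-fold higher at the median.

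**Figure D3:**
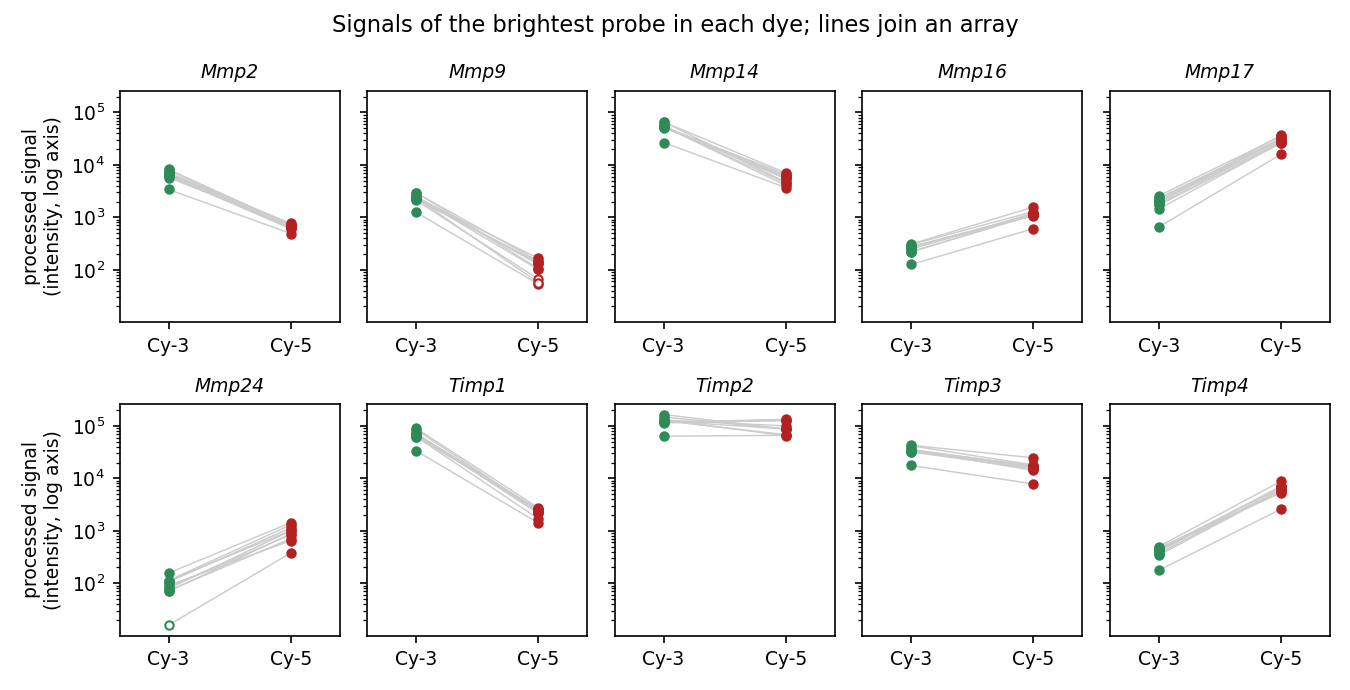
Processed signal (intensity, log axis) of the brightest probe of each member in Cy-3 (green) and Cy-5 (red), with a line joining the dyes of each array and open symbols where the probe was not detected. The lines fall for Mmp2, Mmp9, Mmp14 and Timp1, rise for Mmp16, Mmp17, Mmp24 and Timp4, and are flatter for Timp2 and Timp3; probes differ in response, so heights are not compared between panels.

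Ordered by median ratio from the hemibrain side, the members were Timp4, Mmp17, Mmp24, Mmp16, Timp2, Timp3, Mmp2, Mmp14, Mmp9 and Timp1. Neighbors were compared array by array. Timp4 exceeded Mmp17 on 5 of 10 arrays and Mmp2 exceeded Mmp14 on 7 of 10, so neither pair was ordered beyond its spread. Mmp24 exceeded Mmp16 on 10 of 10, Mmp16 exceeded Timp2 on 9 of 9 and Timp3 exceeded Mmp2 on 8 of 8, with ranges that did not overlap. Mmp17 exceeded Mmp24 on 9 of 10, Mmp14 exceeded Mmp9 on 10 of 10, Mmp9 exceeded Timp1 on 8 of 10, and Timp2 exceeded Timp3 on 7 of 8, all with overlapping ranges. The place of Mmp9 rests on a probe not detected in Cy-5 on 3 arrays. That place turned under normexp and with the floor, which both add 50 to each signal. The Mmp9 median then lay above those of Mmp2 and Mmp14, under normexp (-2.34 against -2.63 and -2.80) and with the floor (-2.54 against -2.75 and -2.90). Timp1 came last by its brightest probe. The median of its second probe, -2.92, lay above those of Mmp2 (-3.06), Mmp14 (-3.19) and Mmp9 (-4.22). As the mean of all probes, Timp1 stood at -3.87 beside -3.81 for Mmp9. These are orders of ratios to the Cy-3 RNA and not of amounts in brain.

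The members varied to different degrees between arrays. Among the 10530 genes with a ratio and detected in both dyes on every array, the SD of the log2 ratio had a median of 0.249. Its quartiles were 0.191 and 0.326, and 5 members exceeded the median. The SD was 0.617 for Mmp24, 0.490 for Timp2 and 0.472 for Mmp9, above those of 98.0%, 94.4% and 93.3% of these genes. Mmp24 and Mmp9 are not themselves among these genes, since their probes were undetected in a dye on 1 and 3 arrays. Timp2 and Timp3 are not among them either, with ratios on 9 and 8 arrays. The repeated Mmp9 probe had an SD of 0.172, under the lower quartile. Its values are averages of up to 10 spots, and it was not detected in Cy-5 on C10-434. Its SD is therefore not directly comparable with these quartiles. Among the brightest probes, Mmp14 (0.328) and Mmp17 (0.301) followed Mmp9, whereas Mmp2 (0.236), Timp1 (0.235), Timp4 (0.228), Timp3 (0.159) and Mmp16 (0.152) lay under the median. Without C10-434 the SD of Mmp24 dropped to 0.273, at the level of 62.7% of genes, whereas those of Timp2 and Mmp9 were 0.505 and 0.501. Which part of this spread belongs to the animals cannot be told apart from labeling and slide.

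Slide is the batch that the array headers give. Slides 1 and 2 held 4 arrays each and were compared with limma over all 40299 probes with a value on each of the 8 arrays, of which 0.0744% differed at an adjusted p under 0.05. Of 13 member probes tested, 0 differed, and 1 had an unadjusted p under 0.05. This was the brighter Mmp9 probe, with means of -4.44 on slide 1 and -3.91 on slide 2, a difference of 0.53 with a standard error of 0.198 and an adjusted p of 0.395 from limma. For the repeated Mmp9 probe the difference was 0.16, with a limma adjusted p of 0.897. Timp2 and Timp3 lacked values on C10-435 or C10-425 and were not fitted, but in the authors' table of values they differed between slides by -0.0011 and 0.12, with limma's adjusted p of 1.00 and 0.937. The 4 arrays of a slide come from different animals of unknown diet, so slide, labeling and animal cannot be told apart. These p-values set the difference between the slides against the spread of arrays within a slide.

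After the values were seen, Timp2 was found to follow the position of the array on its slide. At positions 2 and 3 the ratio lay between 0.08 and 0.29 on 4 arrays, and at positions 1 and 4 between -0.93 and -0.29 on 5 arrays, a difference of medians of 1.00. The separation was present within slide 1, with 0.25 and 0.19 against -0.43 and -0.78, and within slide 2, with 0.29 and 0.08 against -0.29. In the authors' table, which holds a value for C10-435 at position 4, that array stood at -0.89, with the other outer arrays. Mmp24 was also without overlap, at 3.73 to 5.28 on the inner and 3.01 to 3.54 on the outer positions, beside 1.77% of all genes, and the other 8 members overlapped. Under normexp the Timp2 ranges met, at -0.37 to 0.13 and -1.05 to -0.31. The label and the file differ on the position of C10-437 (5 and 1), which was taken from the file.

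**Figure D4:**
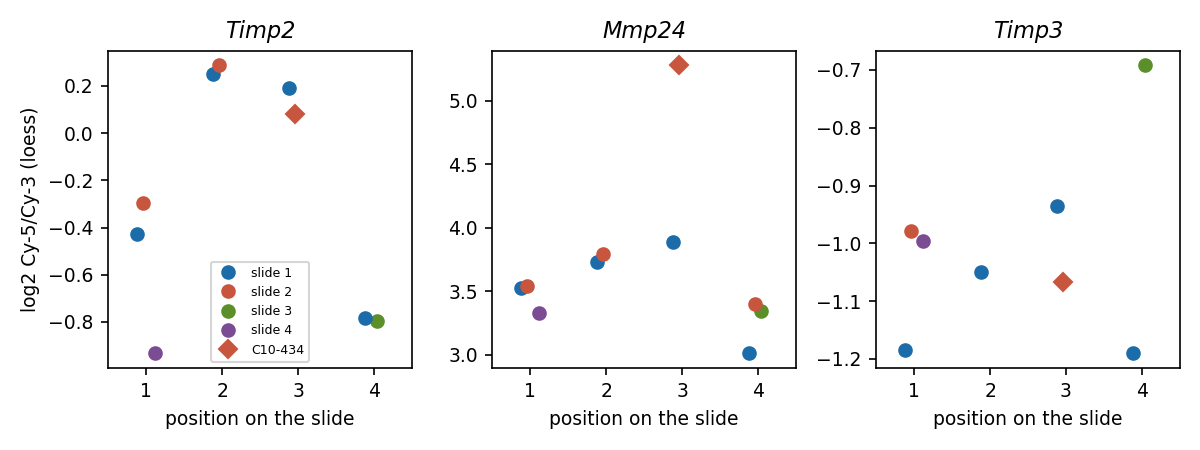
Log2 Cy-5/Cy-3 of Timp2, Mmp24 and Timp3 by position of the array on its slide, 1 point per array colored by slide and C10-434 as a diamond. The vertical axes differ between panels. Timp2 lies above 0 at positions 2 and 3 and below 0 at positions 1 and 4, Mmp24 is higher at the inner positions by 0.47 at the median, and Timp3 overlaps.

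Genes whose ratios followed Mmp9 and Mmp24 most closely over the 10 arrays were read from the same 10530 genes as a description. For Mmp9 these were Scarb2 (Pearson r = 0.897), a lysosomal membrane protein, Spry1 (0.829), an inhibitor of growth factor signaling, and B4gat1 (0.827), a glycosyltransferase. For Mmp24 they were 6430548M08Rik (0.990), Jph3 (0.988), a neuronal junctophilin, and Car2 (0.988), a carbonic anhydrase of oligodendrocytes. The Mmp24 values lean on C10-434, the highest array for all of these genes. Without it the same genes gave 0.941, 0.932 and 0.937, and the closest gene was Cops6 at 0.979, whereas Scarb2 gave 0.899 with Mmp9. The genes share arrays, labeling and normalization, and were picked as the highest of many, so these values carry no test. The Mmp9 values rest on its brighter probe alone, which was detected in Cy-5 on 7 arrays. On C10-437, where it was not detected, that probe was lowest at -5.22, whereas the repeated Mmp9 probe stood at -3.43. Scarb2 and B4gat1 were also lowest on C10-437, and Spry1 on C10-423. Likeness to the repeated probe was not tested.

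The rest of the protease system was read from lists of related genes. By the same rule, 16.5% of all genes were higher and 13.3% lower. Of 17 other metalloproteinases, 15 were measured, of which 0 were higher, 4 were lower and 11 were neither, and 2 were detected in Cy-5 on every array. The lower genes were Mmp3 (stromelysin 1), at a median of -8.16, Mmp13 (a collagenase) at -4.54, Mmp11 at -2.92 and Mmp23 at -1.91. Mmp3 and Mmp13 were detected in Cy-5 on 1 array each, so these ratios depend on the dim channel. Mmp15, another membrane-type enzyme, stood at 3.20 between 2.33 and 3.40, but was detected in Cy-5 on 9 arrays and therefore called neither. It was named after its values were seen.

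Among 10 regulators of the family, 3 were higher and 2 lower, beside 16.5% and 13.3% of all genes. The higher genes were the testicans, proteoglycans that act on membrane-type enzymes, with Spock2 at 4.22, Spock1 at 3.87 and Spock3 at least 46.5-fold higher in Cy-5 on every array, since it was detected in Cy-3 on 0 arrays. The lower genes were the thrombospondins Thbs1 (-4.63) and Thbs2 (-3.15), which bind metalloproteinases and help clear them. Reck, a membrane-anchored inhibitor, stood at -0.17, Furin, an activator of membrane-type enzymes, at 0.20, Lrp1, a clearance receptor, at 0.27, and Bsg, known as an inducer of metalloproteinases, at -1.42, all called neither.

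The plasminogen system, which can activate pro-metalloproteinases, had genes on both sides. Serpini1 (neuroserpin) stood at 7.47 and Serpine2 (protease nexin 1) at 5.41, both of them inhibitors known from brain. Plau (urokinase), detected in Cy-5 on 6 arrays, at -3.78 and its receptor Plaur at -2.64 were lower. Plat, the tissue-type activator found in neurons, was level between the RNAs at 0.04. Among the related Adam proteases, 2 of 9 measured genes were higher and 2 lower, beside 16.5% and 13.3% of all genes. The higher genes were Adam11 at 3.93 and Adam23 at 2.25, which lack catalytic activity. Lower were Adam17, the shedding enzyme inhibited by Timp3, at -2.46, and Adam8 at -2.35. Of 8 Adamts proteases, 3 were higher, with Adamts8 at least 10.3-fold and Adamts3 at 3.81, and 4 were lower, with Adamts5 at -3.99 and Adamts2 at -3.10.

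Substrates fell on different sides, beside 16.5% of all genes higher and 13.3% lower. Of 8 measured collagens and other general matrix genes, 0 were higher and 7 lower, with Col1a1 at -5.57 and Col3a1 at -5.24 and a list median of -3.45. Of 9 measured genes of the brain matrix, 5 were higher, with Bcan (brevican) at 5.43 and Hapln2 at 4.61. The 2 lower genes were Vcan (versican) at -3.69 and Tnc (tenascin C) at -3.13, and the list median was 2.62. With Tnr, measured at 3.68 but detected in Cy-3 on 0 arrays, set at its bound, the list median was 2.12. That bound, Cy-5 at least 0.138-fold of Cy-3, is too loose to limit the ratio. Among 5 neuronal surface or secreted substrates, Icam5 stood at 4.84, Cdh2 (N-cadherin, cut by Mmp24) at 3.22, Nlgn1 at least 23.7-fold higher, and Dag1 (dystroglycan, cut by the gelatinases) at -1.74. Bdnf was below 0 on every array but called neither, with a median of -0.46 between -1.05 and -0.23. All of these values are ratios to a Cy-3 RNA in which neuronal and glial markers were far lower, so a lower ratio does not show that a gene is low in brain.

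**Figure D5:**
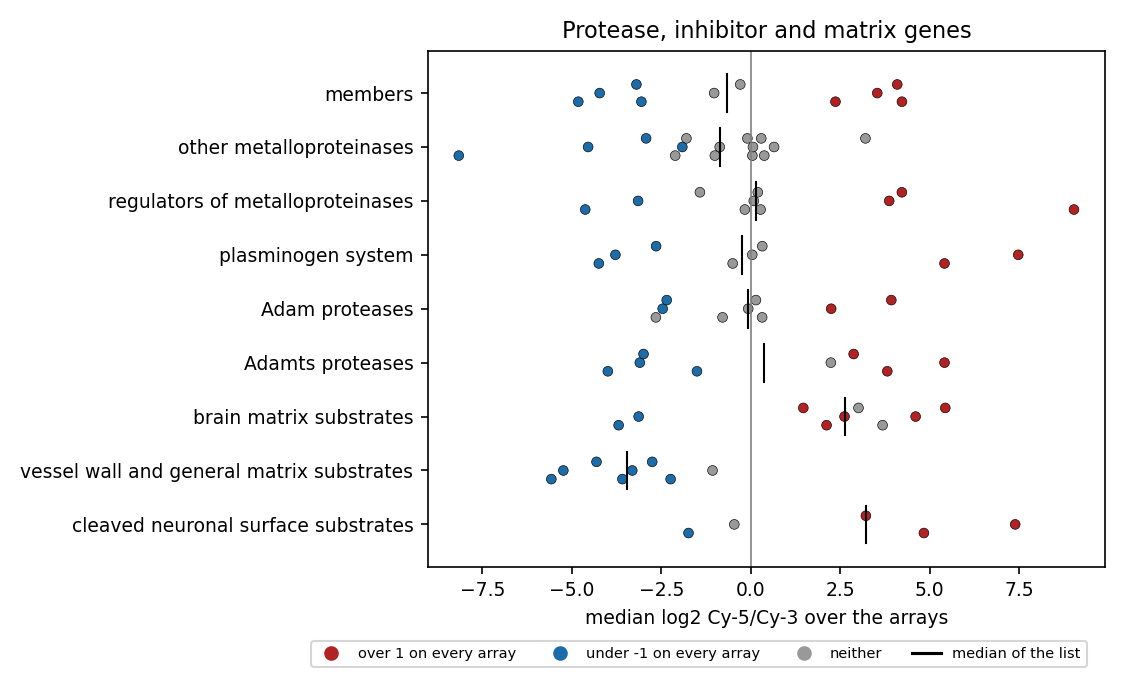
Median log2 Cy-5/Cy-3 over the arrays for each gene of the members and of 8 related lists, with genes over 1 on every array in red, under -1 on every array in blue and the others in gray, and a bar at the median of each list. General matrix substrates lie on the Cy-3 side with a list median of -3.45, and brain matrix and neuronal substrates on the hemibrain side at 2.62 and 3.22. Genes not detected in a dye are drawn at their measured value.

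Markers of the cells of vessels and meninges were read beside Mmp2, Mmp14 and Timp1. Over all genes, 16.5% were higher and 13.3% lower. Of 6 leptomeningeal fibroblast markers, all were detected in Cy-5 on every array, 1 was higher and 3 lower, with Ogn at -3.78, Dcn at -2.85 and Pdgfra at -2.40 lower, Slc6a13 at 2.77 higher, and Igf2 at 1.05 and Lum at -0.12 neither, with list medians from -1.60 to -0.82 over the arrays. Of 6 mural cell markers, 2 were higher and 2 lower, with list medians from -0.01 to 0.94, and of 7 endothelial markers, 4 were higher and 0 lower. Of 5 choroid plexus markers, 4 were higher, with list medians from 4.56 to 5.49. The part of these cells in the members' ratios was not tested.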

How the data were processed

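Each of 10 dual dye Agilent mouse arrays held hemibrain RNA (Cy-5) and a second RNA (Cy-3). The authors deposited the output of Feature Extraction (version 10.10.1.1) for each array, with intensities on a linear scale per dye, a log10 ratio per spot, and quality flags used as deposited. Their deposited table with a value for each probe matched log2 of that ratio (lowest correlation 0.997 over arrays). Its column medians lay between -0.05 and 0.10.

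Processed signals were normalized by loess within each array (span 0.3). Control spots and spots with an outlier flag were left out, and spots of a probe were averaged, leaving 41174 probes. A probe counted as detected where at least 0.5 of its spots were flagged well above background. Probes were named through RefSeq accessions (GRCm38.p6, names alone), which matched 27190 (66.0%), and a gene was taken as its brightest probe. Calls needed values on at least 8 arrays, which 18353 genes had, and diets were not tested. Bounds ("at least") are the lowest over arrays against the dimmest signal well above background. Slides were compared with limma 3.58.1 in R 4.3.3 with Benjamini-Hochberg adjustment, a step tested on simulated data. Figures and counts used Python 3.11.15, pandas 2.3.3 and numpy 2.4.6. The number of arrays and signal over background limit precision.

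The members and lists were chosen with earlier results of these data known. Every member and probe was named, the genes past the fold with the most extreme ratios of each list (at most 2 per direction), those named as substrate, activator or inhibitor, and the 3 genes most like Mmp9 and Mmp24. Mmp11, Mmp23, Spock1, Plaur, Mmp15, Pdgfra, Igf2, Lum, S100a9, Ltf, Camp, Elane, Ngp and Mpo were named after their values were seen. A gene of the plasminogen system list is not reported here. Alternatives were the deposited log ratio, median centring, the authors' table, normexp (offset 50, on median signals), the mean of a gene's probes, a fold of 1.5, other filters on dim probes, and leaving out C10-434 or, between slides, any of the 8 arrays. Background subtraction with a floor of 0.5 and the same offset of 50, and normexp without C10-413, were added after the data were examined.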

Additional observations from a re-analysis of the deposited data

Results flagged for a closer look

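A gap test (Dixon's, 95% level) was applied to the 15 member probes over the arrays, of which 2 held an array farther from the rest than the test allows; chance gives about 1 in 20 such groups, or 0.75 of 15. Mmp9 probe A_52_P507214 stood at -3.01 on C10-424, against -3.66 to -3.38 on the other arrays, and C10-424 was also the highest array on the other Mmp9 probe, at -3.70. Mmp24 (A_52_P605500) stood at 5.28 on C10-434, against 3.01 to 3.89 on the others, with a Cy-3 signal there too dim to be detected.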

How the results depend on the processing

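The 4 higher and 4 lower calls were the same genes with the deposited log ratio, median centring, the authors' table, the mean of all probes, other filters, the floor and without C10-434, and a 1.5-fold limit added Timp3, giving 5 lower. Under normexp 1 was higher and 2 were lower. Also without C10-413, normexp gave 2 higher (Mmp17 and Timp4) and 3 lower. The count of members with an SD above the median of all genes was 5, 9 under normexp and 7 with the floor; the cause was not tested. The median of Mmp24 was 3.53, 1.77 under normexp and 2.09 with the floor, and that of Mmp9 -4.22, -2.34 and -2.54. In the 14 other settings of the slide comparison, no member fitted there differed (Timp2 was fitted in 2 settings, Timp3 in 1 and Mmp9 in 14 of all 15), with adjusted p from 0.265 up, whereas calls over all probes ran from 0 to 92. Some differences changed sign. That of Mmp17 was 0.02, and -0.0028 with median centring; with the floor Mmp24 went from 0.46 to -0.13 and Timp4 from 0.12 to -0.17. With 1 array left out, Mmp17 ran from -0.17 to 0.12, Timp1 from -0.0046 to 0.22, Timp4 from -0.0169 to 0.21, Mmp14 from -0.18 to 0.0774, Mmp2 from -0.0482 to 0.17, Mmp24 from 0.04 to 0.67 and Mmp9 from 0.43 to 0.66. No paired analysis was possible because the labels give no groups and no replicate numbers. Signal over background limits Mmp9 in Cy-5 and Mmp24 in Cy-3 most.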
